A study of Mus musculus with 8 samples.

Results

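Cytokine genes that dendritic cells use to instruct other immune cells were followed in mouse bone marrow-derived dendritic cells kept in hypoxia, in cultures that did or did not receive SCF (stem cell factor, which binds the kinase receptor Kit). The 9 genes were listed by name: Il6, Il1a, Tnf, Il12a, Il12b, Il10, Il23a, Il15 and Il27. Each of the 9 was measured by 1 probe set, out of 22180 genes that the annotation named on the array. Bone marrow of wild-type female C57BL/6 mice grew for 7 days in GM-CSF (20 ng/ml) in air with 21% oxygen, and beads against CD11c then gave cells of a stated purity above 98%. They were then moved to 2% oxygen (about 14 mmHg) with GM-CSF for 2 days, and given SCF at 100 ng/ml or left in medium for 6 hours. The work was done in 4 separate experiments called BC, D2, E and I, each with 1 medium and 1 SCF culture, which gave 4 arrays in each group. Low oxygen and GM-CSF were common to both groups, so neither can be read from these arrays, and how many mice went into a culture is not given in the sources used here.

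Cytokines are secreted proteins, and a dendritic cell that has sensed a microbe or tissue damage releases them to set the kind of response that follows. IL-6, IL-1 alpha and TNF drive inflammation. The IL-12 family is built from paired chains: the product of Il12b joins that of Il12a to form IL-12, or that of Il23a to form IL-23, while the product of Il27 joins that of Ebi3 to form IL-27. IL-12 steers T cells towards interferon gamma, IL-23 maintains cells that make IL-17, and IL-27 both promotes and restrains T cells. IL-15 sustains natural killer cells and memory CD8 T cells, and IL-10 restrains the dendritic cell itself and the cells it meets. Transcription of several of these genes depends on factors of the NF-kB, AP-1 and C/EBP families, which bind short motifs upstream of the start site.

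The upstream sequences of Il6, Tnf and Il12b are shown because these genes stand for the inflammatory and the IL-12 branch, and because regulators that act through such motifs are measured further on. Each is the 250 bases before the annotated start, 5′ to 3′ on the gene's strand, taken from RefSeq (GRCm38.p6). They lie at chr5:30012864-30013113 (plus strand) for Il6, chr17:35202008-35202257 (minus strand) for Tnf and chr11:44399813-44400062 (plus strand) for Il12b. Capitals mark matches, on either strand, to 4 motifs: NF-kB as GGGANNTTCC, AP-1 as TGANTCA, C/EBP as TTGNNCAA and the TATA box as TATAAA. No matches of different motifs overlapped in these windows.

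Il6: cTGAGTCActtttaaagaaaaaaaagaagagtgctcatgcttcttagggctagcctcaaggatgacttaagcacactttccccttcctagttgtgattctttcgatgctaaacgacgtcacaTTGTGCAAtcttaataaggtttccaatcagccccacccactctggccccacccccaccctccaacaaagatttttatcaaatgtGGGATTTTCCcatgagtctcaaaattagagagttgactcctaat

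Tnf: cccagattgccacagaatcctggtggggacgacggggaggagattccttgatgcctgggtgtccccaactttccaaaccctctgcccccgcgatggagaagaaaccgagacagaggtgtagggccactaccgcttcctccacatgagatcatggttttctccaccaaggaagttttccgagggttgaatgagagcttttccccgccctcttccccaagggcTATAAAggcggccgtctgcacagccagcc

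Il12b: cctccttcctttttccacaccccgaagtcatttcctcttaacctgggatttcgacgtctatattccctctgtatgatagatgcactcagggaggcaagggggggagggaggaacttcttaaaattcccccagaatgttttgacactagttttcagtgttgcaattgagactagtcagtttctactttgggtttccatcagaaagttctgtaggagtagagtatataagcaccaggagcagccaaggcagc

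The Il6 window held an AP-1 match from base -249 to -243, a C/EBP match from -128 to -121 and an NF-kB match from -44 to -35, counted from the start site. In the Tnf window the only match was a TATA box from -29 to -24. None of these letter patterns occurred in the Il12b window, which says only that these letters are not in it. Among 32817 windows of the same length, 1.21% held the NF-kB pattern, 6.75% the AP-1 pattern, 5.65% the C/EBP pattern and 12.4% the TATA pattern. RefSeq windows were found for 5 of the 9 genes. A match describes the sequence and was not tied to any value on the arrays.

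Values are log2 intensities, on which a difference of 1 is a doubling. The arrays had median intensities from 13.3 to 13.9 on the linear scale, and across the 12668 tested probe sets, which are not independent of each other, pairs of arrays correlated at Pearson's r of 0.987 to 0.996. A probe set was tested where its mean over the 8 arrays reached 4.05, the median of all probe sets with a gene symbol. Of the 9 cytokine genes 7 passed this filter, while Il23a and Il10 did not. Il12a lay just inside it, at a mean of 4.07, and Il23a, the brightest gene outside, at 3.65. Against the label of the cells, 13 of 13 dendritic cell markers on the array passed the filter, among them the CD11c gene Itgax and the class II genes H2-Aa and H2-Ab1. All 9 macrophage and monocyte markers on the array passed as well. By contrast 1 of 9 T and NK cell, 1 of 7 B cell, 2 of 9 neutrophil and 3 of 10 mast cell and basophil markers passed, and Cd3e, Cd79a, S100a8 and Mcpt4 stayed below the filter on every array.

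SCF was compared with medium within each experiment, to ask which cytokine genes the cells altered in 6 hours. None of the 7 tested cytokine genes passed limma's test at an adjusted p of 0.05, where experiments entered as a block, and neither did any of the 12668 probe sets (0%). At an unadjusted p under 0.05 there was 1 of the 7, Il1a, against 4.21% of all probe sets (533). Of the 7, 5 were fitted above 0 and 2 below, with a median of 0.043, while 50.5% of all probe sets were above 0 with a median of 0.00077. The 2 groups of arrays overlapped in level for each of the 9 genes, and they did not overlap for 0.971% of all probe sets. None of the 9 differed in the same direction in all 4 experiments, against 12.9% of all probe sets, so neither count sets the 9 apart. The fitted folds of the tested genes ran from 0.843 for Il1a to 1.05 for Il12b, and the 95% interval of each of the 9 lay within 1.5-fold in both directions. These intervals bound the average change in intensity over the 4 experiments and do not show that the cultures were alike. Those of Il23a and Il10 come from a fit of all 25335 probe sets with a symbol. Where a gene may be at background, as these 2 may, the interval does not bound a change in its transcript. In bulk RNA fewer cells of a type and less RNA per cell cannot be told apart.

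**Figure D1:**
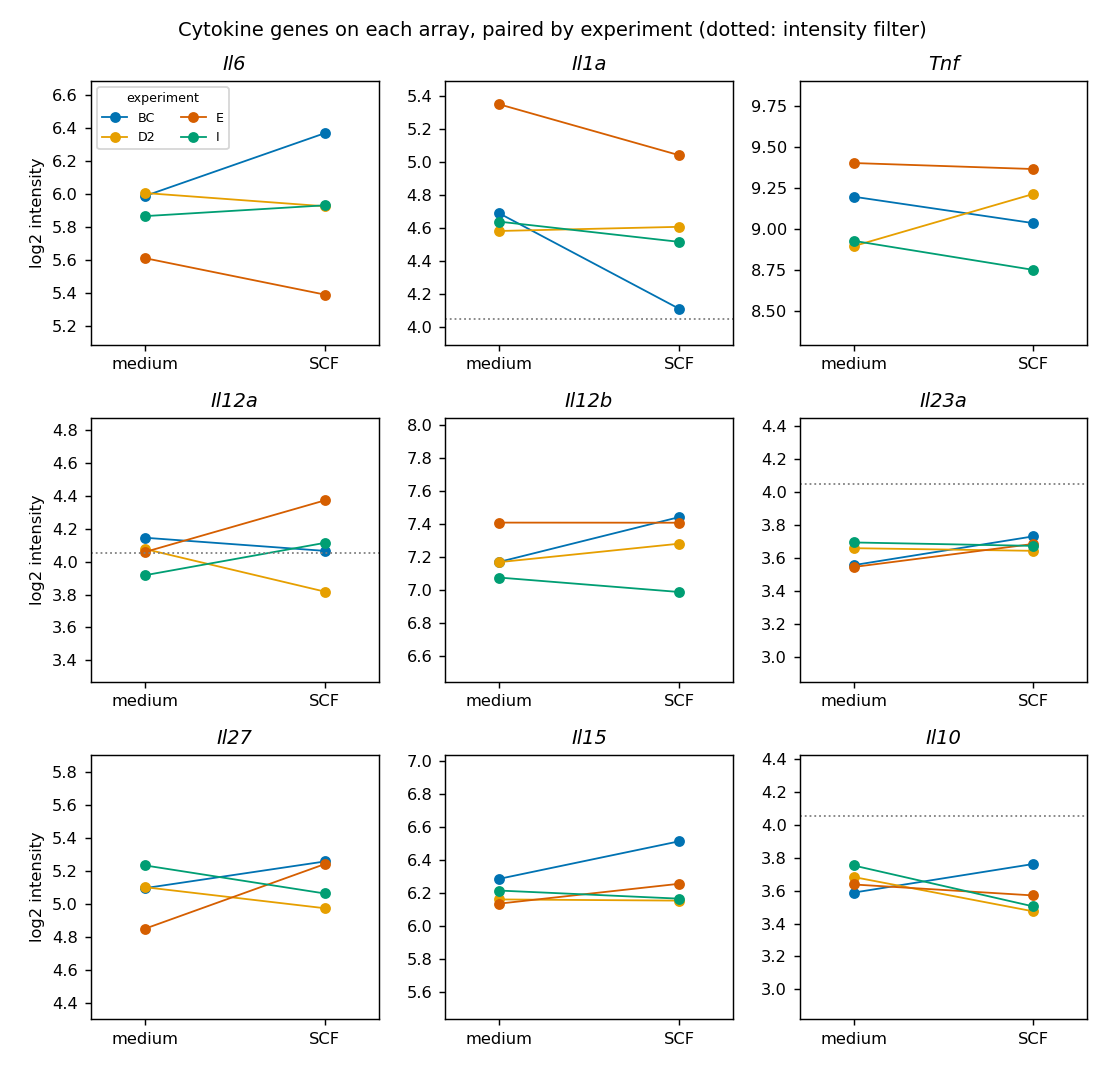
Log2 intensity of each of the 9 cytokine genes in medium (left) and with SCF (right), 1 point per array, with a line joining the arrays of an experiment (BC blue, D2 yellow, E orange, I green). Each panel spans 1.6 log2 units, and the dotted line is the intensity filter of 4.05. Lines slope both up and down within each gene, and the 2 groups overlap in every panel.

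Il1a, an alarmin of the IL-1 family that can act inside the cell or from its surface, showed the largest fitted difference of the 9. Its medium arrays read 4.69 (BC), 4.58 (D2), 5.35 (E) and 4.64 (I). Its SCF arrays read 4.11 (BC), 4.61 (D2), 5.04 (E) and 4.52 (I). The SCF array was the lower of the pair by most in BC (−0.58) and E (−0.31), by less in I (−0.12), and slightly the higher in D2 (0.025). The fitted log2 difference was −0.25 (SE 0.096, 95% interval −0.47 to −0.022, limma adjusted p = 0.945). Group means were 4.82 ± 0.36 in medium and 4.57 ± 0.38 with SCF (SD, n = 4). It was −0.14 without BC. The summed linear intensity of the 9 macrophage and monocyte markers was 2356 in medium and 2014 with SCF in BC, and 2958 and 2960 in E. In the same order it was 2261 and 2388 in D2, and 2300.5 and 2253.9 in I. Of these markers 8 were fitted below 0, but 3 of 9 without BC. The part of these cells in the value of Il1a was not tested.

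Tnf encodes the inflammatory cytokine that is made as a membrane protein and shed by a protease. In medium the Tnf arrays read 9.20 (BC), 8.90 (D2), 9.40 (E) and 8.93 (I). After SCF they read 9.04, 9.21, 9.36 and 8.75 in the same order. Tnf was higher with SCF in D2 and lower in the other 3 experiments, and the groups spanned nearly the same range. The fitted difference was −0.014 (SE 0.087, 95% interval −0.22 to 0.19, limma adjusted p = 0.996). Leaving out BC turned it to 0.035, and leaving out I to 0.040.

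Il6 went both ways. Medium arrays read 5.99 (BC), 6.01 (D2), 5.61 (E) and 5.87 (I), and SCF arrays 6.37, 5.93, 5.39 and 5.93. The SCF minus medium differences were 0.38 and 0.066 in BC and I, and −0.22 and −0.080 in E and D2. Because BC and E lay apart, the SCF arrays had an SD of 0.40 and the medium arrays one of 0.18 (n = 4 each). The fit gave 0.036 (SE 0.095, 95% interval −0.19 to 0.26, limma adjusted p = 0.984), which turned to −0.079 without BC.

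Among the IL-12 family, Il12b, the chain shared by IL-12 and IL-23, had the narrowest interval of the 3 tested genes. Its medium arrays read 7.17 (BC), 7.17 (D2), 7.41 (E) and 7.08 (I), and its SCF arrays 7.44, 7.28, 7.41 and 6.99. The difference was positive in BC (0.27) and D2 (0.11), near 0 in E and negative in I (−0.088). The fit gave 0.074 (SE 0.069, 95% interval −0.087 to 0.24, limma adjusted p = 0.945), or 0.0079 without BC and 0.13 without I. Il12a, the chain particular to IL-12, read 4.14 (BC), 4.08 (D2), 4.06 (E) and 3.92 (I) in medium and 4.06, 3.82, 4.37 and 4.11 with SCF. These values straddle the filter of 4.05, with BC and D2 lower after SCF and E and I higher. The fitted 0.043 (SE 0.096) turned to −0.047 without E and to −0.0085 without I.

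Il27 encodes the chain that pairs with the product of Ebi3. Medium arrays read 5.10 (BC), 5.10 (D2), 4.85 (E) and 5.23 (I), and SCF arrays 5.26, 4.97, 5.24 and 5.06. The pair differences were 0.39 in E and 0.16 in BC but −0.13 in D2 and −0.17 in I, so the fitted 0.064 (SE 0.097, 95% interval −0.16 to 0.29) became −0.045 without E. Il23a, the chain particular to IL-23, was dim throughout, between 3.54 and 3.73 on the 8 arrays. Its mean was 3.61 ± 0.074 in medium and 3.68 ± 0.037 with SCF (SD, n = 4). A gene below the filter may be at background, since the values carry no detection call. In a fit of all 25335 probe sets with a symbol, the Il23a difference was 0.070 (SE 0.058, limma adjusted p = 1.00), or 0.034 without BC and 0.046 without E.

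Il15 is displayed to lymphocytes bound to the receptor chain of Il15ra. Medium arrays of Il15 were close to each other, at 6.29 (BC), 6.16 (D2), 6.14 (E) and 6.21 (I). SCF arrays read 6.51, 6.15, 6.26 and 6.17. The SCF array was higher in BC (0.23) and E (0.12) and slightly lower in D2 (−0.0072) and I (−0.049). The fit gave 0.073 (SE 0.063, 95% interval −0.073 to 0.22, limma adjusted p = 0.945), and 0.021 without BC or 0.11 without I. Il10, the suppressive cytokine, lay below the filter on each array, at 3.59 (BC), 3.68 (D2), 3.64 (E) and 3.75 (I) in medium and 3.76, 3.47, 3.57 and 3.50 after SCF. Its SCF array was the lower in D2, E and I, and the mean difference was −0.088 ± 0.19 (SD, n = 4 experiments), or −0.17 without BC, −0.047 without D2 and −0.034 without I.

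**Figure D2:**
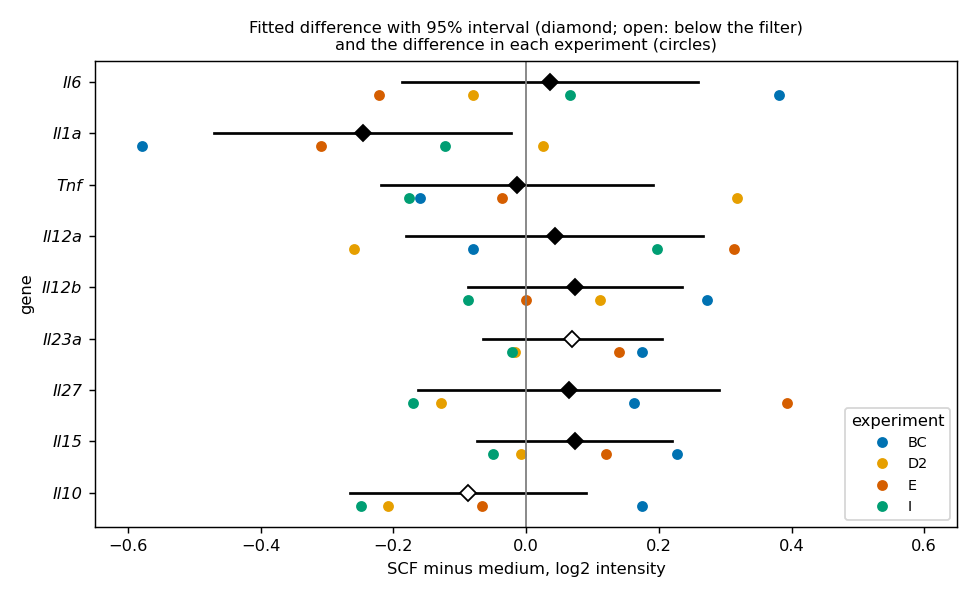
SCF minus medium on the log2 intensity scale (horizontal) for each cytokine gene (vertical). Diamonds with bars are limma estimates with 95% intervals, open for the 2 genes below the filter, and circles are the differences in BC, D2, E and I. The circles of each gene lie on both sides of 0, and the bar of Il1a alone stays below 0 before adjustment.

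The number of cytokine genes that were higher with SCF was also counted in each experiment. In BC 6 of the 9 genes were higher with SCF, in D2 3, in E 4 and in I 2. The median difference of the 7 tested genes came to 0.16 (BC), −0.0072 (D2), −0.00069 (E) and −0.088 (I). Over all tested probe sets the same medians were −0.0075, 0.0042, 0.00036 and 0.0048. Each experiment holds 1 pair of arrays, so no experiment's own difference can be tested.

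The cultures were compared between experiments as well, to ask how far these cytokine genes differ between them, with the treatment kept as a term. The cells of an experiment cannot be told apart from anything else its arrays shared, such as handling. The median range was 0.38 for the 7 genes and 0.20 over all probe sets. Such a range also includes the spread within pairs, which was wider for the 7 genes. Their SE of the SCF difference ran from 0.063 (Il15) to 0.097 (Il27), against a median of 0.062 over all probe sets. By limma's F test none of the 7 reached an adjusted p of 0.05, while 3.35% of all probe sets (424) did. At an unadjusted p under 0.05 there were 4 of the 7, Il1a, Il6, Tnf and Il12b, against 24.2% of all probe sets. For 5 of the 7, both arrays of 1 experiment lay above or below the 6 other arrays, as they did for 47.0% of all probe sets.

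Il1a had the widest range, 0.80 (a 1.74-fold span), from 5.20 in E to 4.40 in BC (limma F test, adjusted p = 0.0596). Both arrays of E, medium and SCF, stood above the 6 others, while D2 and I differed by 0.017. The gene passed with the array medians equalized (adjusted p = 0.0463), with a variance trend (0.0184) and with a larger offset (0.0223), and its range shrank to 0.19 without E. Il6 ran almost the other way, from 6.18 in BC through 5.97 in D2 and 5.90 in I to 5.50 in E, a 1.60-fold span (adjusted p = 0.0916). Both E arrays of Il6 were below the 6 others, D2 and I differed by 0.067, and the range was 0.28 without E. With a variance trend Il6 passed (adjusted p = 0.0318), and likewise with a larger offset (0.0420).

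Tnf and Il12b ordered the experiments alike, E over BC over D2 over I. For Tnf the means were 9.38, 9.12, 9.06 and 8.84, with both E arrays above the others (limma F test, adjusted p = 0.129). The BC and D2 means of Tnf differed by 0.061, less than either pair differed within itself. Tnf passed with the stricter intensity filter (adjusted p = 0.0367) and with a variance trend (0.0281), and its range of 0.54 became 0.28 without E and 0.33 without I. For Il12b the means were 7.41, 7.31, 7.22 and 7.03, with both arrays of I below the others (adjusted p = 0.159), and a range of 0.18 without I. Il15 was highest in BC at 6.40 against 6.16 to 6.20 elsewhere, and without BC its range was 0.038. Il12a spanned 0.27 (0.16 without E) and Il27 0.14, with no experiment apart from the others. Below the filter, Il23a spanned 0.069 and Il10 0.097.

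Macrophage and monocyte markers differed between the same experiments. Their summed linear intensity was 2958 and 2960 on the 2 arrays of E and between 2014 and 2388 on the 6 others. Cd14, Fcgr1, Ly6c2 and C1qb, 4 of the 9, passed the F test, against 3.35% of all probe sets. That share also applies to the counts of the other marker lists below. None of these 4 genes passed without E (adjusted p from 0.0512 for Ly6c2 to 0.870 for C1qb), where only 38 of all probe sets passed. Calls were also lost for Ly6c2 without BC (0.0883), for Fcgr1 without I (0.0929), and for C1qb without D2 (0.0509) or I (0.0765). The coreceptor gene Cd14 averaged 6.01 in E and 4.78 to 5.29 elsewhere. These 4 were named after their values were seen. E was the highest experiment for Cd14, Fcgr1 and C1qb, while Ly6c2 was highest in I (7.01) and E (6.96). Among the tested cytokine genes E was highest for Il1a, Tnf, Il12a and Il12b, and lowest for Il6. Dendritic cell markers summed to between 9934 and 10434 over the 8 arrays, with 1 of 13, Clec10a, passing, which it did not without D2 (adjusted p = 0.0509) or I (0.0940). The mast cell and basophil sum was lowest in D2, at 185 to 192, and 209 to 251 elsewhere. Kit was its brightest marker (mean log2 of 6.74 in medium), then Gata2 (5.19) and Cpa3 (4.55), and the other markers lay below the filter. How much mast cells contributed to this sum was not tested. Of its 3 tested markers 2 passed, also named after their values were seen: Kit, the SCF receptor gene (range 0.54, limma adjusted p = 0.0412), and Cpa3, a mast cell protease gene (range 1.01, adjusted p = 0.0333). Kit did not pass with any 1 experiment left out (0.0672 to 0.199), and Cpa3 passed only when the experiment left out was E (0.0291). How much of the cytokine differences goes with these markers was not tested.

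**Figure D3:**
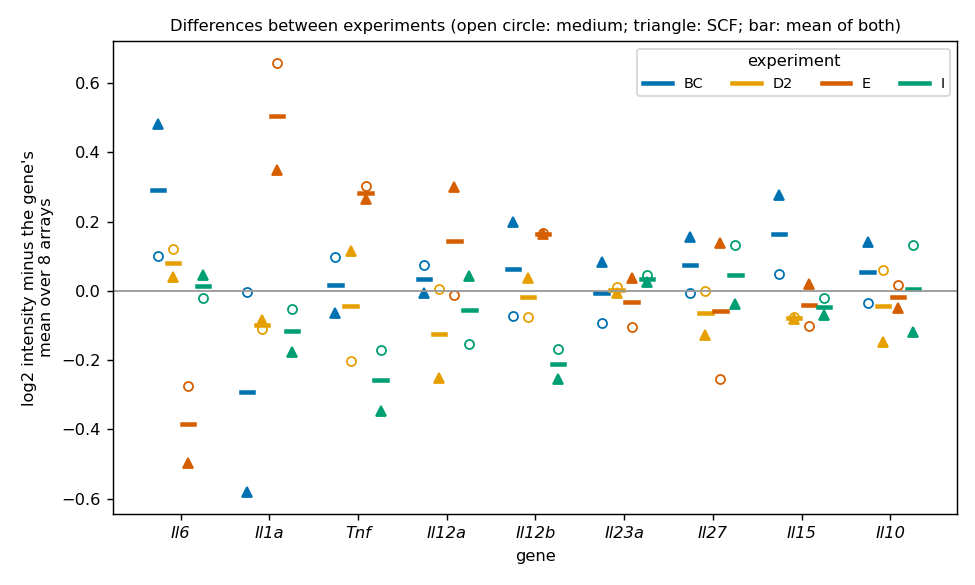
Log2 intensity of each cytokine gene minus that gene's mean over the 8 arrays (vertical), by gene and experiment. Open circles are medium arrays, triangles SCF arrays and bars the mean of both. E stands high for Il1a and Tnf and low for Il6, and BC stands high for Il15.

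Genes that followed the same course over the 8 arrays were ranked by Pearson's r of log2 values, among the 11351 tested genes. The arrays come in 4 pairs that share cells, and the highest of so many values of r is large by selection. Closest to Il6 were Gdf11 (r = 0.975), Tmem91 (0.953), Itga6 (0.953), Clec2i (0.949) and Fam13b (0.948). Closest to Il1a were Tlr3, the receptor for double-stranded RNA (r = 0.984), and Atp6ap1, an accessory subunit of the vacuolar proton pump (0.978). Tlr3 itself passed the F test between experiments (limma adjusted p = 0.0363), with a mean of 4.93 in E and 4.25 to 4.37 elsewhere. Tnf was followed by Ndst2 (r = 0.989) and Creb3l2 (0.972), and Il12b by Slc17a9 (0.947) and Sphk2 (0.930). Il12a was followed by Ly9 (0.973) and Mlec (0.911), Il27 by 1110032F04Rik (0.984) and Ccdc96 (0.976), and Il15 by Tlr12 (0.978) and Yeats2 (0.973).

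The receptors, partner chains and regulators of these cytokines, with related genes such as Il2ra, were taken as 8 lists. They held 96 symbols, of which 89 were on the array and 78 were tested. None of the 78 passed for SCF in limma, and 3 had an unadjusted p under 0.05 (Traf2, Tyk2 and Relb), a share of 3.85% beside the 4.21% of all probe sets. Of the 78, 48 were fitted above 0 and 30 below, with a median of 0.011 and a full range from −0.19 to 0.15. The genes described next were chosen for the smallest p in their list. Of the 78, 16 (20.5%) had the same sign in all 4 experiments, against 12.9% of all probe sets; a gene that was higher or lower in 4 of 4 experiments is 1 of these. The medians of the 8 lists lay between −0.034 and 0.087.

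For receptors and partners of the IL-12 family, all 8 tested genes were fitted above 0, with a median of 0.057, or 7 of 8 with the array medians equalized and 7 of 8 without E. Tyk2, the kinase bound to the IL-12 and IL-23 receptors, was at 0.12 (SE 0.053, limma adjusted p = 0.945) and higher in 4 of 4 experiments. Il27ra, the IL-27 receptor gene, was at 0.099 (SE 0.063), or 0.055 without I, and Il23r, the IL-23 receptor gene, at 0.071 (SE 0.060). Leaving out BC gave 0.030 for Il23r and leaving out I gave 0.11. Of the IL-15 list 2 genes were tested. Il15ra was at 0.13 (SE 0.065), or 0.060 without BC, where its difference was 0.34. The other, Il2ra, encodes the alpha chain of the IL-2 receptor, which is not part of the IL-15 receptor. It was at 0.045 (SE 0.072) and −0.011 without BC. Il2rb, a chain of the IL-15 receptor, lay below the filter, at a mean of 3.62 in medium and 3.69 with SCF.

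On the inflammatory side, the 7 tested genes of the IL-6 list had a median of −0.034, with 4 below 0. Adam10, a shedding protease, was at −0.079 (SE 0.054), or −0.050 without BC. The receptor gene Il6ra was at −0.049 (SE 0.054), or −0.025 without BC, −0.030 without E and −0.075 without D2. Clcf1, a cytokine of the same family, was at −0.046 (SE 0.055), or −0.018 without BC and −0.084 without D2. The IL-1 list had 9 of 13 below 0, or 7 of 13 without BC or without E. Il1f9, an older symbol of the IL-36 gamma gene, was at −0.19 (SE 0.088). It was at −0.13 without BC or without E, and at −0.29 without I, where its difference was 0.13. Il18rap, an accessory receptor chain, was at 0.12 (SE 0.071) and Sigirr, an inhibitory receptor of the family, at 0.098 (SE 0.058), or 0.051 and 0.052 without D2. Il1b stayed below the filter, with 3.95 ± 0.16 for medium and 3.92 ± 0.32 for SCF (SD, n = 4), and was named after its value was seen.

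The TNF list had 6 of 9 above 0, or 4 of 9 with the array medians equalized. Traf2, an adaptor of the TNF receptors, was at 0.15 (SE 0.051, limma adjusted p = 0.945), from 7.60 in medium to 7.74 with SCF, and higher in 4 of 4 experiments. The receptor gene Tnfrsf1b was at 0.10 (SE 0.055), and Birc2, a ubiquitin ligase of the same complex, at −0.10 (SE 0.055), lower in 4 of 4. In the IL-10 list the 5 tested genes lay between −0.025 and 0.025, with the receptor gene Il10rb at 0.025, the kinase gene Jak1 at −0.025 and the receptor gene Il10ra at 0.014. Il10ra turned to −0.0024 without D2, −0.0019 without E and −0.0051 with the array medians equalized. Il10rb turned to −0.0100 without I. Jak1 was at −0.011 without D2, −0.013 without E and −0.056 without I.

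Activators of cytokine transcription were above 0 in 11 of 17 genes, or 8 of 17 with the array medians equalized. Relb, an NF-kB subunit active in dendritic cell maturation, was at 0.13 (SE 0.055) and Nfkbiz, a nuclear cofactor for Il6 transcription, at 0.12 (SE 0.067), or 0.059 without I. Cebpb, whose protein binds the C/EBP motif, was at −0.14 (SE 0.074) and lower in 4 of 4, or −0.053 without BC. The list of brakes on cytokine production also held Arid5a and Elavl1, whose products can stabilize messages, so it is not made of brakes alone. Of its 17 genes 11 were above 0, or 8 of 17 with the medians equalized. Zfp36l2, of a protein family that marks messages for decay, was at −0.15 (SE 0.069) and lower in 4 of 4, or −0.074 without BC. The RNase gene Zc3h12a was at 0.12 (SE 0.070), or 0.057 without D2 and 0.19 without I, and Bcl3, a nuclear member of the IkB family, at 0.11 (SE 0.052) and higher in 4 of 4.

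**Figure D4:**
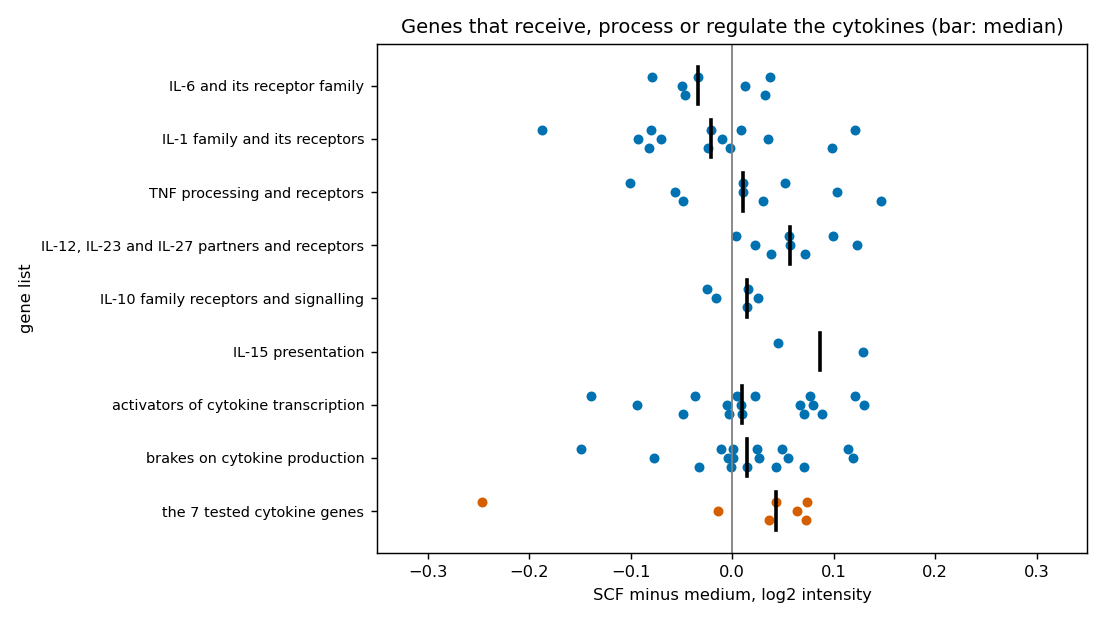
SCF minus medium on the log2 intensity scale (horizontal) for the 78 tested genes of the 8 lists and for the 7 tested cytokine genes, 1 point per gene, with a bar at each median. The points lie between −0.19 and 0.15 for the lists, and Il1a lies lowest of all at −0.25.

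Between experiments 6 of the 78 genes passed the F test, against the 3.35% of all probe sets given above. In the IL-1 list these were Il33, an alarmin (range 0.97, limma adjusted p = 0.0124), Il1f9 (0.91, adjusted p = 0.0285) and Il1r2, the decoy receptor gene (0.76, adjusted p = 0.0282). Among regulators they were Cebpb (0.83, adjusted p = 0.0328), Relb (0.47, adjusted p = 0.0452) and Bcl3 (0.47, adjusted p = 0.0491). Il33 and Il1f9 were highest in D2 and lowest in I, and Il1r2 was highest in E at 8.43. Cebpb was highest in E at 6.94 and lowest in BC at 6.11, while Relb and Bcl3 were highest in BC and lowest in D2. Each of the 6 lost its call when at least 1 experiment was left out, which also removes degrees of freedom. Il33 did so without D2 (adjusted p = 0.0509) or I (0.0566), Il1f9 without D2 (0.0958) or E (0.0619) and Il1r2 without E (0.174) or I (0.0850). Cebpb did so without BC (0.129), D2 (0.0509) or E (0.102), and Relb and Bcl3 without any 1 of the 4 (0.0778 to 0.179). The genes next in rank in their lists, none of which passed, were Il6ra and Il6st, Traf2 and Tnfrsf1a, Il12rb2 and Tyk2, Socs3 and Stat3, Il2ra and Il15ra, and Arid5a, with ranges from 0.14 to 0.43.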

How the data were processed

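The table deposited by the authors holds 1 linear intensity per probe set and array, for 41345 probe sets on 8 arrays, with RMA named per the submitters' processing notes. No source used here gives its version, software or chip definition. The linear scale follows from the values, with maxima from 3588 to 4252, so log2 was taken with no pseudocount. GEO's platform annotation gave 1 symbol to 23521 probe sets, several to 1814 and none to 16010. Groups and experiments came from the titles. Probe sets with a symbol and a mean log2 of at least 4.05 (16.6 linear) were tested, which left 12668, or 11351 genes taking the brightest probe set each.

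SCF was compared with medium in limma 3.58.1 (R 4.3.3) by lmFit and eBayes by a two-sided test with a fixed block per experiment, and experiments by the F test on their coefficients, each with Benjamini-Hochberg adjustment over all tested probe sets at 0.05. The fit has 3 residual degrees of freedom, 7.39 with the prior. The design text says that both cultures of an experiment came from 1 preparation, and deviations from the group means correlated at 0.36 to 0.46 within experiments. Precision is limited by 4 arrays a group. The code of the fit was run on simulated data, with independent normal noise and variances drawn from the fit's own prior. That run cannot show whether the noise of real arrays has this form. All 9 symbols matched the RefSeq table (GRCm38.p6) by Entrez number.

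The members and lists were chosen with earlier results of these data known. The 9 genes were named whatever their values, as were, from each list, the 3 genes of smallest p for SCF and the 2 of smallest p between experiments, and the genes of highest r. Alternatives were no block or a random block, a repeated quantile normalization, equalized array medians, no or a stricter filter, a variance trend, log2(value + 16), the mean of a gene's probe sets, and each experiment left out.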

Additional observations from a re-analysis of the deposited data

Results flagged for a closer look

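In the medium group the Il1a value of experiment E, 5.35, stood far above the other 3 arrays, which read 4.58 to 4.69. Its gap to the nearest array was 0.86 of the group's range, above the 95% critical value of Dixon's test for 4 values. Chance flags about 1 in 20 groups, and 18 groups were checked (9 genes in 2 groups). The SCF array of the same experiment was also the highest of its group, at 5.04.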

How the results depend on the processing

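No cytokine gene and no probe set passed for SCF under the 12 alternatives that could change the fit, including the fit with no replicate block (0 probe sets) and experiment as a random block (0). The mean of a gene's probe sets changes nothing here, since each of the 9 has 1. With 1 experiment left out, fitted signs turned in 6 cases. Il6 ran from −0.079 (without BC) to 0.12, Tnf from −0.12 to 0.040 (without I; 0.035 without BC), Il12a from −0.047 (without E; −0.0085 without I) to 0.14, and Il27 from −0.045 (without E) to 0.14. Equalized medians moved the median over all probe sets from 0.00077 to −0.018. Between experiments, the 424 probe sets became 194 with no intensity filter, 1396 with the stricter filter, 1527 with a variance trend, 1210 with a larger offset and 38 to 177 with 1 experiment left out (38 without E, 110 without D2, 148 without BC, 177 without I). The count of passing cytokine genes, 0, became 1 with equalized medians (Il1a, range 0.81), 1 with the stricter filter (Tnf, range 0.54), 3 with a variance trend (Il1a, Il6, Tnf) and 2 with a larger offset (Il1a, range 0.50, and Il6, range 0.53). The stricter filter tests fewer probe sets, and of the cytokine genes Il1a, Il6, Il12a and Il27 are not among them; otherwise the cause was not tested. Without a detection call, signal over background is unknown, which limits Il23a, Il10 and Il12a most.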
